A study of Mus musculus with 15 samples.

Results

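The Hox genes are 39 of the 24421 genes in a count table of cultured mouse kidney proximal tubule cells, and were chosen by symbol alone: Hox, a cluster letter from a to d, and a number. RNA-seq was done on 15 libraries of primary proximal tubule cells, which are the epithelial cells that reclaim most of what the kidney filters, from C57BL/6 mice. The groups were male KO (Diet1-/-, n = 3 libraries), male WT (Diet1+/+, n = 4), female KO (Diet1-/-, n = 4) and female WT (Diet1+/+, n = 4), and in all of them the cells had been through a single passage in culture. Per the labels, the cells of 3 to 4 mice were mixed for each group and the mixture was split into technical replicates, so each group is 1 pool. The p-values therefore measure technical spread within a pool, and not how mice or cultures vary. Diet1, whose current symbol is Malrd1, was not analysed here. The questions were which clusters and positions of Hox genes these cells express, and how KO differed from WT within each sex.

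Hox genes encode homeodomain transcription factors that lie in clusters named A to D on separate chromosomes. Within a cluster the genes run in the order in which they are switched on along the body, with low numbers at the end that is active in the hindbrain and neck and high numbers at the end that is active in the tail, genitals and limb tips. Genes with the same number in different clusters, called paralogues, are the most alike in sequence. In the mouse kidney, the paralogues numbered 11 are required for the metanephric mesenchyme to induce the ureteric bud, those numbered 10 act in the stroma, and Hoxb7 is known for its activity in the ureteric bud and the collecting ducts. The HoxA cluster is on the minus strand of chromosome 6. On mouse build GRCm38 (mm10), HoxB lies at chr11:96194316-96368256, HoxC at chr15:102921103-103036852 and HoxD at chr2:74668310-74765142, all on the plus strand.

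Library totals ran from 17648416 to 30896637 counts, at which 3 counts correspond to between 0.0971 and 0.170 CPM, which are counts scaled to 1e+06 per library. The floors cover counting error only, and the SDs and standard errors below cover technical spread within a pool. CPM values are scaled by TMM (a trimmed mean scaling factor), and ± gives the SD between libraries beside a CPM value and the standard error beside a log2 fold change. On log2 CPM, the lowest correlation within a group was 0.994 and the highest between groups was 0.993. Of 20 proximal tubule markers, 12 had enough counts to be tested. Among them Dab2 averaged 33.6 ± 0.603 CPM in male KO, 43.5 ± 1.19 in male WT, 44.4 ± 2.22 in female KO and 69.5 ± 0.479 in female WT. The transporters Slc34a1 and Slc22a6, which define the tubule in the kidney, were at or near 0 in every group. Some proximal tubule markers were thus present in the cultures and others were not. The 20 markers summed to 139 to 149 CPM in male WT and 181 to 196 in female WT. For 15 fibroblast and stroma markers the sums were 3556 to 3795 CPM in male WT and 3669 to 3949 in female WT. Such sums do not give shares of cells.

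Of the 39 Hox genes, 32 passed the filter on low counts and were tested, and 31 were expressed, meaning a mean of at least 1 CPM in both WT groups. Position in the cluster divided the expressed genes from the rest. All 30 genes numbered 2 to 11 were expressed. None of the 6 genes numbered 12 or 13 was. HoxA contributed 10 expressed genes, HoxB 8 (Hoxb2 to Hoxb9), HoxC 7 (Hoxc4 to Hoxc11) and HoxD 6 (Hoxd3 to Hoxd11). The count of expressed genes was the same at a threshold of 0.5 CPM and was 29 at 2 CPM.

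The genes at the tail end of each cluster were near or at 0. Hoxc13, which acts in hair and nails, had 26, 8, 13 and 14 counts in the male WT libraries and 7, 7, 4 and 13 in the female WT libraries, enough to be tested but below 1 CPM. Hoxa13, Hoxb13 and Hoxd13, which act in the hindgut, prostate, genitals and limb tips, had at most 4 counts in any library. Hoxc12 and Hoxd12 had 0 counts in all 15 libraries, which allows a level of up to 0.170 CPM in the shallowest of them. At the other end, Hoxb1, a gene of a single hindbrain segment, had at most 3 counts in any library, and Hoxd1 had 6, 2, 4 and 3 counts in male WT and 1, 0, 2 and 2 in female WT. The step at the tail end was steep. In HoxD, Hoxd10 had a WT mean level of 23.8 CPM per kb of exon, Hoxd11 1.16 and Hoxd12 0. With the longest coding transcript as the length, Hoxd11 had 4.39 CPM per kb and Hoxd10 stayed at 23.8. In HoxA, Hoxa10 had 16.7, Hoxa11 2.53 and Hoxa13 0.0198 CPM per kb.

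**Figure D1:**
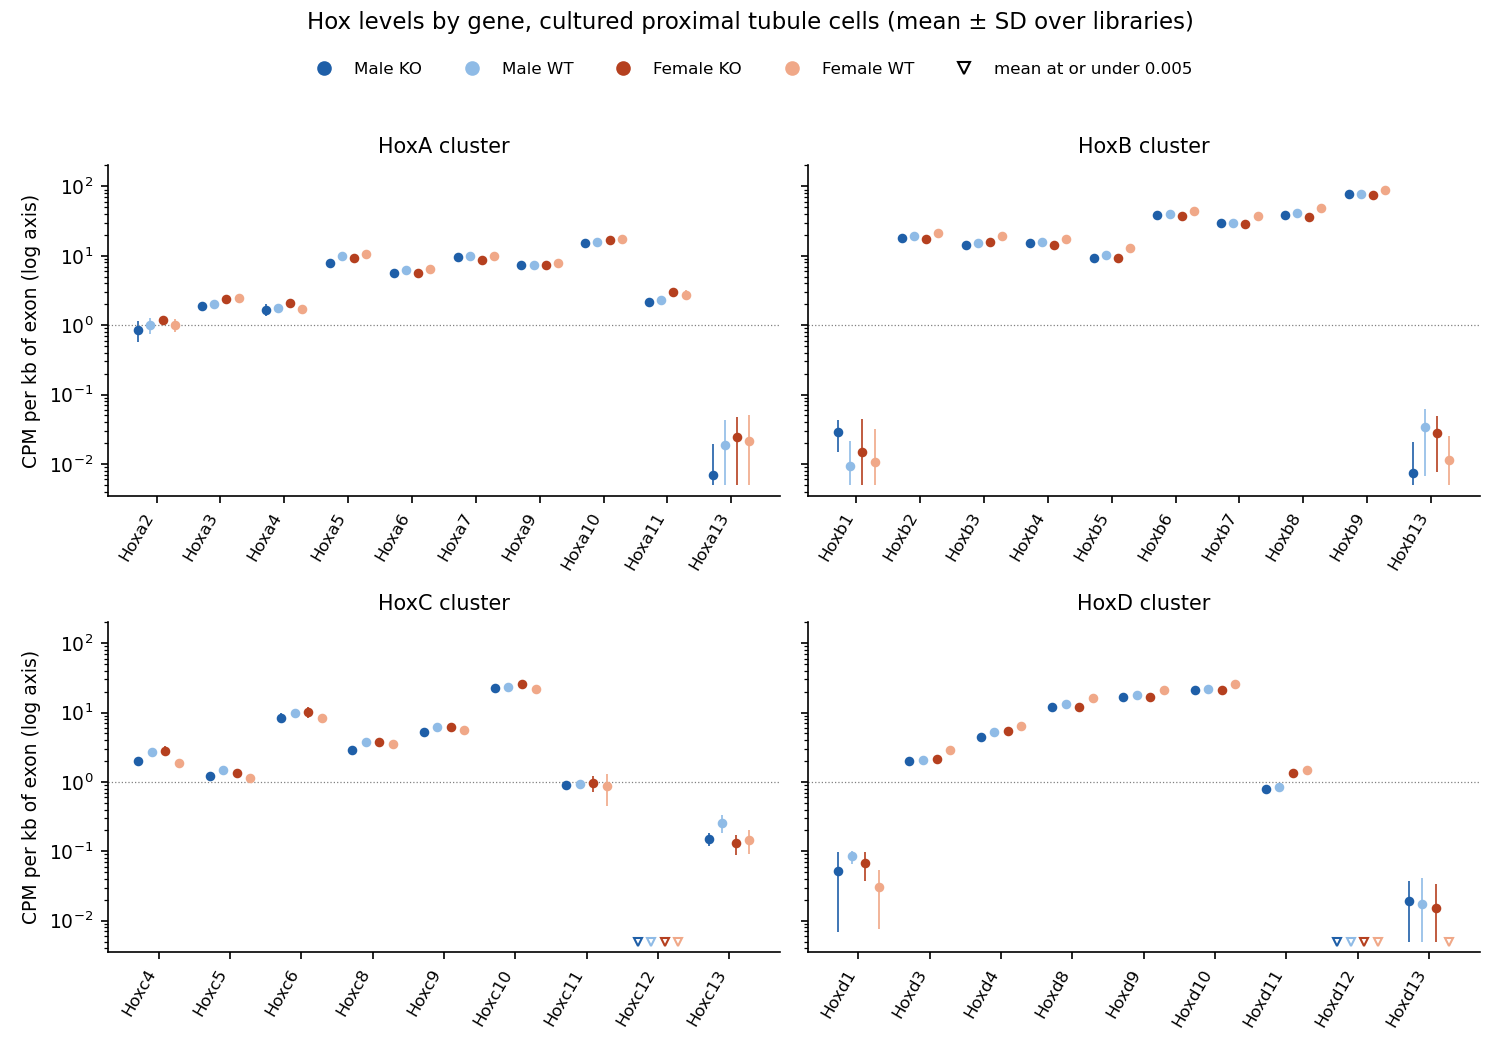
Mean level of 38 Hox genes in CPM per kb of exon on a log axis, with SD over the libraries of a group, in cluster order from low to high number. The dotted line is at 1 CPM per kb, and open triangles stand for a mean at or under 0.005. The genes numbered 2 to 11 sit near or above the line in all 4 groups and those numbered 12 and 13 sit below it.

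HoxB was the most abundant cluster. Its summed level was 610 ± 14.9 CPM in male KO and 631 ± 8.67 in male WT, and 601 ± 12.3 in female KO and 738 ± 7.38 in female WT, which is between 58.5% and 61.7% of all Hox counts in each group. Per kb of exon, the median WT level of the expressed genes was 26.9 CPM in HoxB, 10.4 in HoxD, 4.62 in HoxA and 3.64 in HoxC. Of the 10 Hox genes with the highest level per kb, 6 were HoxB genes, and the number was the same when the longest coding transcript was used as the length. Hoxb9, a gene of the trunk and the highest of all, had 76.9 ± 2.27 CPM per kb in male WT and 88.9 ± 1.36 in female WT. Hoxb8 followed at 40.9 ± 1.26 and 48.7 ± 1.35, and Hoxb6, a gene of the lateral plate mesoderm, at 40.5 ± 1.17 and 44.2 ± 1.57 CPM per kb. Hoxb7, the ureteric bud gene, had 29.9 ± 1.26 CPM per kb in male WT and 37.2 ± 1.34 in female WT.

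In each of the other clusters the gene with the highest level per kb was the one numbered 10. Hoxd10 had 22.1 ± 1.07 CPM per kb in male WT and 25.6 ± 1.26 in female WT, Hoxc10 had 23.3 ± 1.47 and 21.9 ± 0.254, and Hoxa10 had 15.8 ± 0.555 and 17.7 ± 0.381. All 3 are the paralogues known for their role in the kidney stroma. The paralogues known for kidney induction were far lower, with WT means of 2.53 CPM per kb for Hoxa11, 1.16 for Hoxd11 and 0.908 for Hoxc11. By the longest coding transcript the Hoxd11 mean was 4.39. Summed over the clusters, paralogues numbered 9 had the highest WT level per kb (116), followed by 8 (63.4) and 10 (63.1), and those numbered 11 summed to 4.60. The order among neighbours was mostly not resolved: of 30 neighbouring pairs in the ranking of expressed genes by level per kb, the ranges over the 8 WT libraries overlapped in 25. The 5 neighbouring pairs that did not overlap were Hoxb9 above Hoxb8, Hoxb6 above Hoxb7, Hoxb7 above Hoxd10, Hoxa9 above Hoxa6, and Hoxd4 above Hoxc8. Hoxb6 and Hoxb7 were barely apart, at 39.28 against 39.23 CPM per kb. The order also depends on the length used. By the longest coding transcript, Hoxb2 ranked 3 with a WT mean of 43.5 CPM per kb, above Hoxb6 (42.4) and Hoxb7 (40.1). Counts of overlapping genes are uncertain, since the strand setting of the counting is not given in the sources used here. By the annotation, other genes on the same strand share 62.4% of the exon bases of Hoxd3 and 52.3% of those of Hoxd4, and genes on the opposite strand share 52.9% of Hoxb3, 35.0% of Hoxa11 and 27.3% of Hoxb2.

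The summed level of all Hox genes was 976 to 1023 CPM in male KO and 1045 to 1069 in male WT, and 1005 to 1067 in female KO and 1186 to 1209.8 in female WT. In females the HoxB sum in KO was 81.4% of that in WT and the HoxD sum 79.1%, with no overlap between the libraries. HoxD summed to between 134 and 142 CPM in female KO and to between 168 and 181 in female WT. The HoxC sum went the other way in females, at 102 to 126 CPM in KO and 91.5 to 99.5 in WT, and female KO replicates 1 and 2 were the highest of the 15 libraries. In males the HoxC sum was 91.9 to 98.5 CPM in KO and 104 to 112 in WT, again with no overlap. The HoxA sum in KO was 95.1% of that in WT in males and 93.9% in females. In bulk samples, fewer cells of a type that expresses a gene and less RNA per cell cannot be told apart.

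**Figure D2:**
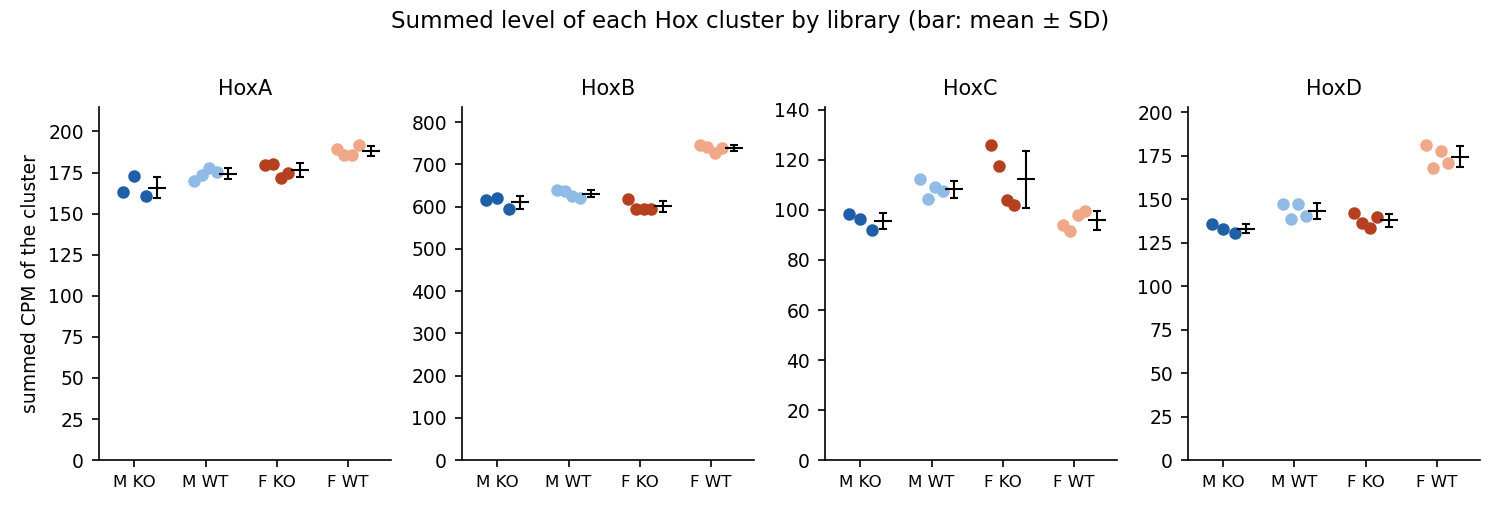
Summed CPM of the Hox genes of each cluster in each of the 15 libraries (points), with mean ± SD beside them. M and F stand for male and female. In HoxB and HoxD female WT stands above the other 3 groups, and in HoxC the order of KO and WT is opposite in the 2 sexes.

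In females, KO against WT, 15 of the 32 tested Hox genes fell and 2 rose, all by less than 2-fold. All 8 expressed HoxB genes fell, from Hoxb2 of the hindbrain to Hoxb9 of the trunk, and so did 5 of 6 HoxD genes (Hoxd3, Hoxd4, Hoxd8, Hoxd9 and Hoxd10). In HoxA, Hoxa5 and Hoxa7 fell and the other 8 did not pass the test. In HoxC no gene fell, and Hoxc4 and Hoxc10 rose. A gene was called at an adjusted p below 0.05 by edgeR's quasi-likelihood test with Benjamini-Hochberg adjustment over 13912 genes. Of all tested genes, 39.3% were called in this comparison, 18.6% lower and 20.7% higher. The Hox shares were 46.9% lower and 6.25% higher, with a median log2 fold change of -0.17 over the 32 genes, against a median of 0.00014 over all genes. Scaling by library size alone moved the share of called genes that were higher to 39.9% from 52.7%, and the Hox counts to 17 lower and 2 higher.

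Hoxb8 carried the change with the smallest p among Hox genes. It had 99.1, 89.1, 94.9 and 95.2 CPM in the female KO libraries, against 132, 128, 123 and 130.0 in female WT. Every KO library was below every WT library, and the log2 fold change was -0.44 ± 0.034 (edgeR adjusted p = 1.01e-12). Groups that do not overlap, with KO lower, were found for 14 of the 32 Hox genes and for 16.7% of all tested genes. Hoxb9, the most abundant Hox gene, had 202, 196, 196 and 192 CPM in female KO, against 233, 230.0, 225 and 227 in female WT. Its change was smaller but as regular across the libraries, with a log2 fold change of -0.22 ± 0.028 (edgeR adjusted p = 7.18e-08).

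Hoxb5, which acts in the neural crest of the gut, had 26.7, 25.3, 24.4 and 28.2 CPM in female KO, against 35.4, 36.8, 34.4 and 36.3 in female WT, a log2 fold change of -0.45 ± 0.051 (edgeR adjusted p = 8.53e-09). Hoxb7 had 45.5, 44.2, 45.7 and 44.5 CPM in female KO, against 60.6, 56.8, 56.5 and 56.1 in female WT. The groups did not overlap and its log2 fold change was -0.35 ± 0.042 (edgeR adjusted p = 1.87e-08). The other members of the cluster that fell were Hoxb2, Hoxb3, Hoxb4, used to expand blood stem cells, and Hoxb6. Their log2 fold changes ran from -0.32 for Hoxb2 to -0.23 for Hoxb6, and their KO and WT libraries did not overlap.

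In HoxD, Hoxd8 had 35.3, 30.3, 33.2 and 32.8 CPM in female KO, against 48.8, 44.3, 45.7 and 41.6 in female WT. The groups did not overlap and the log2 fold change was -0.45 ± 0.053 (edgeR adjusted p = 1.21e-08). Hoxd3, a gene of the first neck vertebrae, had 9.42, 9.44, 8.45 and 8.69 CPM in female KO, against 11.6, 10.6, 12.8 and 13.9 in female WT, a log2 fold change of -0.45 ± 0.095 (edgeR adjusted p = 2.34e-04). Hoxd9 changed by -0.32 ± 0.044 and Hoxd10, which patterns the lumbar spinal cord, by -0.29 ± 0.049 on the log2 scale, both without overlap. Hoxd4 was the weakest call of the cluster at -0.25 ± 0.088 (edgeR adjusted p = 0.0268). Its libraries overlapped, and the call was lost without female WT replicate 3 or 4 or female KO replicate 1 or 2. Hoxd11 was at -0.15 ± 0.11 and was not called (edgeR adjusted p = 0.296).

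In HoxC, 7 of the 8 tested genes had a positive log2 fold change in females and 1 a negative one. Only 2 were called higher (25%), near the 20.7% of all tested genes called higher. Hoxc4 had 8.56, 7.84, 6.19 and 6.21 CPM in female KO, against 5.73, 4.79, 4.74 and 3.93 in female WT, with every KO library above every WT library. This was the largest change of any called Hox gene in females, with a log2 fold change of 0.59 ± 0.12 (edgeR adjusted p = 1.42e-04). Hoxc10 had 52.7, 50.3, 44.8 and 46.4 CPM in female KO, against 41.1, 41.9, 41.8 and 42.3 in female WT, and rose by 0.21 ± 0.049 (edgeR adjusted p = 6.74e-04). For Hoxc5, Hoxc6, Hoxc8, Hoxc9 and Hoxc11 the log2 fold changes were 0.24, 0.27, 0.074, 0.15 and 0.10, and none was called. Hoxc13, below 1 CPM, was at -0.15 ± 0.41 and was not called either. In HoxA, Hoxa7 had a log2 fold change of -0.21 ± 0.052 (edgeR adjusted p = 0.00104), and its neighbours Hoxa9 and Hoxa10 were at -0.094 and -0.078 without a call. Against a fold of 1.2 rather than 1, edgeR's glmTreat called Hoxb5, Hoxb8 and Hoxd8 lower and Hoxc4 higher.

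**Figure D3:**
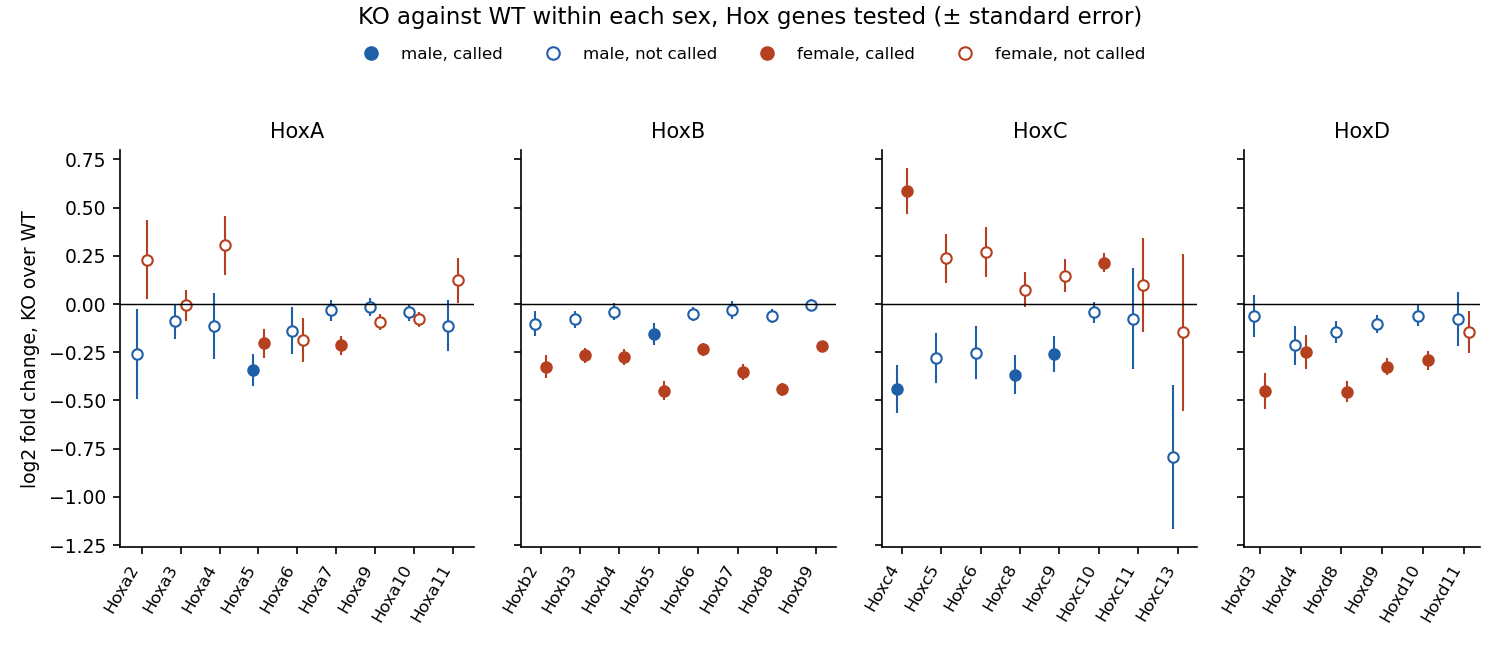
Log2 fold change of KO over WT with its standard error for 31 of the tested Hox genes, in cluster order, in males (blue, left of each pair) and females (red, right). Filled points passed an adjusted p below 0.05 and open points did not. The female points lie below 0 across HoxB and HoxD, and in HoxC the female points lie above the male ones for every gene.

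In males, KO against WT, 5 Hox genes fell and 0 rose: Hoxa5, Hoxb5, Hoxc4, Hoxc8 and Hoxc9. Of the 32 log2 fold changes 31 were negative and their median was -0.096, against 0.00021 over all genes. Over all tested genes, 20.2% were called in males, 10.1% lower and 10.1% higher, and the Hox share called lower was 15.6%. The count was between 2 and 4 when single libraries were left out: 2 without male KO replicate 2, and 3 without male KO replicate 1 or any 1 of the 4 male WT libraries. Groups that do not overlap, with KO lower, were found for 6 Hox genes and for 13.7% of all tested genes.

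Hoxa5, which acts in lung development, had 13.7, 17.2 and 12.999 CPM in the male KO libraries, against 17.2, 17.99, 18.7 and 20.5 in male WT. Male KO replicate 2 lay just above the lowest WT library and the other 2 below all of them, with a log2 fold change of -0.34 ± 0.082 (edgeR adjusted p = 0.00221). In females the same gene had 18.5, 18.2, 15.8 and 16.3 CPM in KO, against 19.4, 19.6, 19.8 and 20.2 in WT, a log2 fold change of -0.20 ± 0.074 (edgeR adjusted p = 0.0261) that was lost without female WT replicate 3 or 4 or female KO replicate 3 or 4. Hoxb5 was the other gene called lower in KO of both sexes, a direction shared by 5.01% of all tested genes. It had 25.7, 25.1 and 26.2 CPM in male KO, against 28.97, 30.2, 26.8 and 28.7 in male WT. The libraries did not overlap, but the male call was marginal (-0.16 ± 0.057, edgeR adjusted p = 0.0484) and was lost without any of 6 of the 7 male libraries, the exception being male WT replicate 3.

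The male HoxC calls were in the middle and low-numbered part of the cluster. Hoxc4 had 4.69, 5.46 and 5.37 CPM in male KO, against 6.67, 7.16, 7.55 and 6.73 in male WT, with no overlap. Its log2 fold change was -0.44 ± 0.13 (edgeR adjusted p = 0.0103), and it was not called without male KO replicate 1. Hoxc8, which patterns the thorax and its motor neurons, had 8.05, 7.49 and 9.30 CPM in male KO, against 9.91, 9.72, 12.5 and 10.6 in male WT. Its log2 fold change was -0.37 ± 0.10 (edgeR adjusted p = 0.00776) with no overlap, and was not called without male WT replicate 3 or male KO replicate 2. Hoxc9 had 14.5, 12.1 and 11.5 CPM in male KO, against 15.9, 14.6, 15.1 and 14.9 in male WT, a log2 fold change of -0.26 ± 0.093 (edgeR adjusted p = 0.0441). That call was lost without any single male library other than male KO replicate 1.

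**Figure D4:**
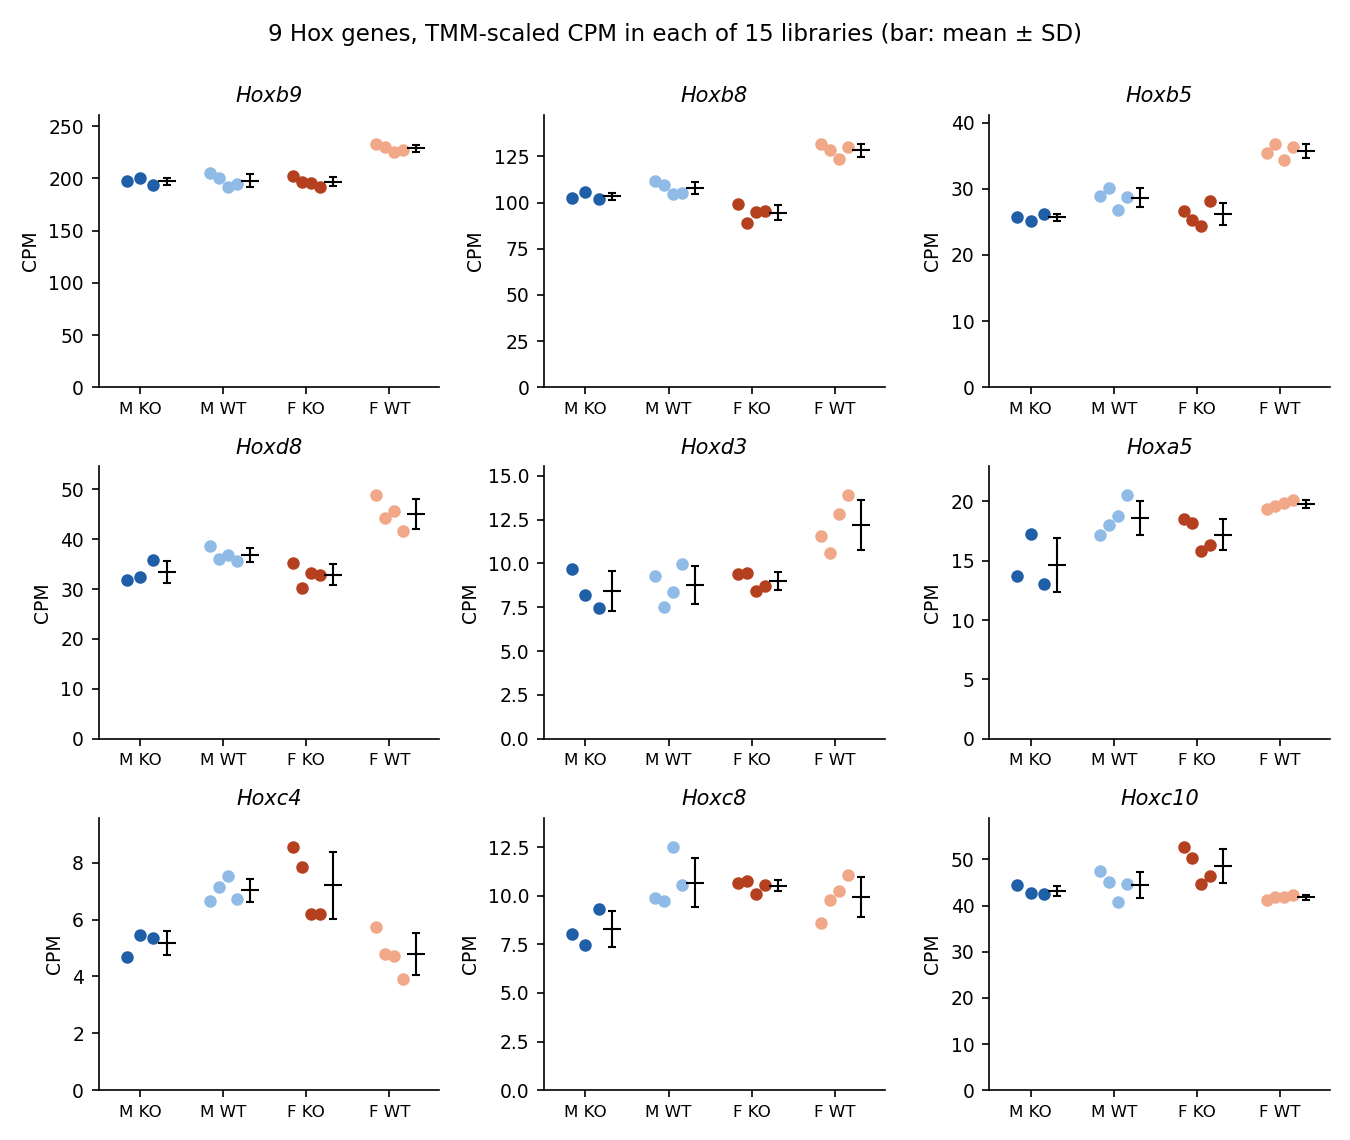
TMM-scaled CPM of 9 Hox genes in each of the 15 libraries (points), with mean ± SD beside each group. Axes start at 0 and M and F stand for male and female. Hoxb8, Hoxb5 and Hoxd8 are highest in female WT, and Hoxc4 is lower in KO in males and higher in KO in females.

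The effect of KO differed between the sexes for 15 Hox genes, tested as the female effect minus the male effect. It was more negative in females for 10 (Hoxb3 to Hoxb9, Hoxd8, Hoxd9 and Hoxd10) and more positive for 5 (Hoxc4, Hoxc5, Hoxc8, Hoxc9 and Hoxc10). Over all tested genes 15.6% were called, 5.89% more negative and 9.76% more positive. With library size alone as the scaling, 46.3% of the called genes were more positive, against 62.4% with TMM, and the Hox counts were 12 and 4. The largest difference was that of Hoxc4, at 1.03 ± 0.17 on the log2 scale (edgeR adjusted p = 3.64e-05), and it was the only Hox gene called in opposite directions in the 2 sexes. Along the expressed HoxC genes the difference was 1.03 for Hoxc4, 0.52 for both Hoxc5 and Hoxc6, 0.44 for Hoxc8, 0.41 for Hoxc9, 0.26 for Hoxc10 and 0.17 for Hoxc11, of which Hoxc6 and Hoxc11 were not called. Hoxc13, tested but below 1 CPM, was at 0.65 ± 0.56 without a call, so the values did not fall along all tested HoxC genes. Hoxb8 differed by -0.38 ± 0.050 (edgeR adjusted p = 6.92e-07). The call for Hoxc5 (0.52 ± 0.18, edgeR adjusted p = 0.049) was lost in 19 of 24 alternatives.

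The female KO effect shares its WT libraries with the comparison of the sexes among WT cells, where 16 Hox genes were higher in females and 2 lower. Over all tested genes 28.6% were called in that comparison, 12.6% higher and 16% lower. With library size alone, 55.2% of the called genes were higher in female WT, against 44.1% with TMM, and 17 Hox genes were higher and 2 lower. All 8 HoxB and all 6 HoxD genes tested were higher in female WT, as were Hoxa3 and Hoxa10, and Hoxc4 and Hoxc5 were lower. The log2 fold change of Hoxc4 was -0.56 ± 0.12 (edgeR adjusted p = 3.06e-04). The largest called difference was that of Hoxd11, a kidney induction gene, which had 6.29, 5.27, 6.40 and 6.90 CPM in female WT, against 3.50, 3.17, 3.76 and 3.79 in male WT, a log2 fold change of 0.81 ± 0.11 (edgeR adjusted p = 7.13e-07). Its level in female KO was 6.45, 5.69, 5.31 and 5.27 CPM and in male KO 3.70, 3.33 and 3.10. For Hoxb8 the mean level was 94.6 ± 4.12 CPM in female KO and 128 ± 3.57 in female WT, and 103 ± 1.97 in male KO and 108 ± 3.33 in male WT. In the HoxB and HoxD sums, every female WT library was above every library of the other 3 groups. Each sex and genotype is 1 pool, so a difference between pools and a difference between genotypes cannot be told apart within a sex.

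With the pool as the replicate, no Hox gene was called for KO against WT. This fit summed the counts of each group, took sex and genotype as additive terms and had 1 residual degree of freedom, and it called 1 gene of all tested (0.00719%). The lowest edgeR adjusted p of a Hox gene was 0.188. An unadjusted p below 0.05 was given to 9 Hox genes, all lower in KO, and to 18% of all tested genes. The 9 were Hoxa5, Hoxb2, Hoxb3, Hoxb5, Hoxb8, Hoxd4, Hoxd8, Hoxd9 and Hoxd10. DESeq2 size factors in the same fit also gave 0 calls.

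Markers of other cell types and of growth also differed between KO and WT, and the direction was not the same for every cell type. Beside the counts below, 10.1% of all tested genes were called higher and 10.1% lower in males. The female shares were 20.7% higher and 18.6% lower. All 20 cell cycle genes were called higher in KO in both sexes, and their summed level was 884 to 923 CPM in female KO and 550.3 to 566 in female WT, and 996 to 1031 in male KO and 777 to 815 in male WT. Of 18 collecting duct and ureteric markers, 10 were tested, and in females 2 were higher in KO and 7 lower. The sum of this list was 1832 to 1906 CPM in female KO and 1510.3 to 1566 in female WT. The keratin Krt7 alone had 1341 ± 23.9 CPM in female KO and 1099.6 ± 12.9 in female WT. Aqp2, the water channel that defines principal cells, was at 0 in female KO and in female WT. In males 2 of these 10 were called higher and 2 lower, with sums of 2025 to 2056 CPM in KO and 1539 to 1725 in WT. Fibroblast and stroma markers were lower in KO for 9 of 11 tested in males and for 6 in females, where 2 were higher. Their sum was 1870.3 to 2066 CPM in male KO and 3556 to 3795 in male WT, and 2638 to 2871 in female KO and 3669 to 3949 in female WT. Of 15 listed, Meox2 was at 0 in male WT, female KO and female WT. Endothelial markers were called lower in 9 of 10 in male KO, with sums of 52.5 to 60.1 CPM in KO and 113 to 126 in WT. In females 3 of these 10 were called higher, with sums of 51.4 to 67.1 CPM in KO and 45.5 to 54.0 in WT. Leukocyte markers were called higher in KO for 5 of 10 tested in each sex, with sums of 52.8 to 65.1 CPM in female KO and 38.1 to 47.4 in female WT, and 35.5 to 37.8 in male KO and 23.2 to 28.5 in male WT. The lists were chosen with earlier results of these data known, so their counts are a description. The part of these cell types, or of growth, in the Hox results was not tested.

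Smooth muscle and pericyte markers were called lower in male KO for 8 of 9, and in females for 4, with 2 higher. The counts in this paragraph stand beside 20.2% of all tested genes called in males and 39.3% in females. Their sums were 2968 to 3041 CPM in male KO and 3497 to 3868 in male WT, and 3789 to 4374 in female KO and 3856 to 3899.7 in female WT. Podocyte markers, 8 tested, had 0 higher and 3 lower in male KO, and 2 higher and 2 lower in female KO. Of 8 loop and distal tubule markers tested, 1 was higher and 0 lower in male KO, and 1 higher and 3 lower in female KO. Among the 12 proximal tubule markers tested, 1 was higher and 3 lower in male KO, and 2 higher and 3 lower in female KO. Their sum, over 20 listed, was 120 to 122 CPM in male KO and 139 to 149 in male WT, and 125 to 132 in female KO and 181 to 196 in female WT.

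The clusters also hold noncoding genes, of which 8 of 15 listed by the annotation were tested. In females 2 of them fell, both in HoxB, beside 18.6% of all tested genes called lower. In males 1 fell, beside 10.1% of all tested genes. Hoxb5os, an antisense transcript at chr11:96291024-96306910 that spans Hoxb5 and Hoxb6, was at 0.789 ± 0.225 CPM in female KO and 1.68 ± 0.587 in female WT, a log2 fold change of -1.07 ± 0.31 (edgeR adjusted p = 0.00663). Mir10a, the hairpin gene of miR-10a between Hoxb4 and Hoxb5 (chr11:96317165-96317274), was at 0.483 ± 0.112 CPM in female KO and 1.09 ± 0.282 in female WT (-1.14 ± 0.28, edgeR adjusted p = 0.0015). The libraries were made from mRNA, so these are reads over the hairpin's position and not mature miRNA. In males, Hotairm1, a noncoding transcript of the HoxA cluster, was at 4.57 ± 1.13 CPM in KO and 5.89 ± 0.333 in WT (-0.36 ± 0.12, edgeR adjusted p = 0.0358). Hoxaas2, Hoxa11os, Gm53, Mir196a-1 and Hoxd3os1 were tested and not called in either sex, with female log2 fold changes from -0.79 for Hoxd3os1 to 0.17 for Hoxa11os.

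Outside the clusters the nearest tested genes were mixed. Halr1, a noncoding gene 41.9 kb outside the HoxA cluster, was at 0.324 ± 0.131 CPM in female KO and 1.09 ± 0.240 in female WT (-1.74 ± 0.35, edgeR adjusted p = 1.32e-04). Hibadh, an enzyme of valine breakdown 285 kb beyond Hoxa13, changed by -0.18 ± 0.037 in females. Calcoco1, a coactivator gene 199 kb beyond Hoxc13, was called lower in KO of both sexes, at -0.19 ± 0.031 in males and -0.25 ± 0.029 in females. Skap1 and Atp5g1 beside HoxB, Smug1 beside HoxC and Mtx2 beside HoxD were not called in either sex. Mtx2, 60.7 kb beyond Hoxd1, had a log2 fold change of -0.055 ± 0.058 in females, and Skap1, 96.3 kb beyond Hoxb1, had -0.26 ± 0.22.

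Of the miRNAs encoded inside the clusters, the 5p arms of the miR-10 and miR-196 genes are shown because their loci lie between the Hox genes described above and their seeds match Hox transcripts. These 4 share 2 seeds (bases 2 to 8, in capitals), and the mature sequences are RefSeq's on GRCm38.p6.
mmu-miR-10a-5p: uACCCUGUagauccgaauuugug
mmu-miR-10b-5p: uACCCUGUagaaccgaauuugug
mmu-miR-196a-5p: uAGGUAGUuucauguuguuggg
mmu-miR-196b-5p: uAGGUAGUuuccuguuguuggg

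MiR-10a is encoded in HoxB and miR-10b in HoxD. MiR-196a is encoded in both HoxB and HoxC, and miR-196b in HoxA. In mouse embryos, miR-196 is known to direct cleavage of the Hoxb8 transcript. The 3' UTR of Hoxb8 holds the site at chr11:96284888-96284909 (plus strand), where capitals mark bases with a Watson-Crick partner in miR-196a and the lower-case base faces the seed in a G:U pair.
Hoxb8 site: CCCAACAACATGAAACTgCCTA

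Of its 22 bases, 21 pair by Watson-Crick rules. An exact match to the miR-196 seed (ACTACCT) was in the annotated 3' UTR of 8 of 38 Hox genes with one (21.05%), against 5.997% of 19744 genes. The 8 were Hoxa4, Hoxa5, Hoxa7, Hoxa9, Hoxb1, Hoxb6, Hoxb7 and Hoxc8. Of these, Hoxa4 and Hoxa9 were not called in KO of either sex and Hoxb1 was not tested. The miR-10 seed match (ACAGGGT) was in 4 of 38 (10.53%), against 12.22% of all genes. A match is a description of the letters. Mature miRNAs were not measured, and reads over the Mir196a-1 hairpin were 3.29 ± 0.470 CPM in female KO and 3.93 ± 0.193 in female WT, without a call.

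RefSeq's promoter table (GRCm38.p6, 250 bases before to 50 after a start) held 24 windows for 22 of the 39 Hox genes. Their median GC share was 57.67% and their median ratio of observed to expected CpG 0.6263, against 56.67% and 0.5714 for all windows of genes in the count table. The 3 windows of low Hox genes had a median of 74.3% GC and 37 CpG, the 2 of genes not detected 57.2% and 11.5, and the 19 of expressed genes 55.7% and 14. The letters TGATNNAT, the composite motif of Pbx and Hox dimers, were found on either strand in 4 Hox windows (16.67%), those of Hoxa2, Hoxb1, Hoxb8 and Hoxd11, and in 7.216% of the windows of genes in the table. The first 3 windows below are those of the called genes with the largest change, with CpG in capitals. Hoxb5, next by size of change, is named only. The Hoxb8 window was chosen after its values were seen, because it holds the motif, which is in capitals and starts 11 bases before the start. The start of Hoxc4 used by RefSeq lies inside the gene as GENCODE annotates it. All 4 windows are on the plus strand: Hoxc4 at chr15:103034145-103034444, Hoxd8 at chr2:74704365-74704664, Hoxd3 at chr2:74711743-74712042 and Hoxb8 at chr11:96281655-96281954.
Hoxc4: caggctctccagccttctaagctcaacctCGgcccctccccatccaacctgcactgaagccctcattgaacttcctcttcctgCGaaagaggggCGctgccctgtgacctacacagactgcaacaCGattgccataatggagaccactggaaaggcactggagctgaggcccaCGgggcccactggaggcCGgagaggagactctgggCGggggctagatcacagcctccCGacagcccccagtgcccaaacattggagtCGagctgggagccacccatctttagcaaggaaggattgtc
Hoxd8: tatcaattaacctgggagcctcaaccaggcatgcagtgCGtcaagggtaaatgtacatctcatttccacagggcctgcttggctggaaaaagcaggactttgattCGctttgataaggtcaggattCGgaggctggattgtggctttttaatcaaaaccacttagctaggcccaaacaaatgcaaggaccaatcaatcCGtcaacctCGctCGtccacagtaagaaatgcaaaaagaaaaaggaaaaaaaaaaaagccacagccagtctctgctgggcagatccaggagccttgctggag
Hoxd3: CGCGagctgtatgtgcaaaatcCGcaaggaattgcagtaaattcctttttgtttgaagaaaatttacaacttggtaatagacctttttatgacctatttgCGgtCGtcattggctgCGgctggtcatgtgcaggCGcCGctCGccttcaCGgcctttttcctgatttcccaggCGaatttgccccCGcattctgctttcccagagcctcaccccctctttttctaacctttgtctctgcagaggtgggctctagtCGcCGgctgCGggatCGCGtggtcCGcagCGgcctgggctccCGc
Hoxb8: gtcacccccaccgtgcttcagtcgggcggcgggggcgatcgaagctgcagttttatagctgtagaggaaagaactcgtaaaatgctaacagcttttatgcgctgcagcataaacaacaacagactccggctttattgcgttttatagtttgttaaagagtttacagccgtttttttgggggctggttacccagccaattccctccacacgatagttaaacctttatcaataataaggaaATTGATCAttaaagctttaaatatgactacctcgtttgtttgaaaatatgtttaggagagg

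The Hoxd3 window held 20 CpG, the Hoxc4 window 9 and the Hoxd8 window 6. Hoxd8 and Hoxd3, which changed by a like amount in females, thus had windows of unlike CpG content, with 46.7% and 54.0% GC.

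TALE homeodomain proteins, the Pbx, Meis and Pknox families that bind DNA together with Hox proteins, did not move one way. In males 0 of 11 were called higher and 4 lower in KO, with Pknox2 at -0.51 ± 0.063 (edgeR adjusted p = 1.40e-07) and Meis1 at -0.37 ± 0.13. In females 3 were called higher and 2 lower, with Meis2 at 0.40 ± 0.070 and Meis1 at 0.34 ± 0.13 among the higher and Meis3 at -0.22 ± 0.074 among the lower. Meis1 and Meis2 were thus called lower in male KO and higher in female KO. A link between these genes and the Hox genes was not tested. The median log2 fold change of the list was -0.093 in males and 0.0071 in females. Its counts stand beside 20.2% of all tested genes called in males and 39.3% in females.

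Retinoic acid switches on the low-numbered end of the clusters in the embryo, and Cdx proteins act on the middle. Of 20 genes of this list 14 were tested. In male KO 0 were called higher and 6 lower, and in female KO 1 higher and 7 lower. Over all tested genes 10.1% were called higher and 10.1% lower in males, and 20.7% higher and 18.6% lower in females. The medians of the list were -0.20 in males and -0.12 in females. Dhrs3, a retinaldehyde reductase that retinoic acid induces, was at 50.7 ± 2.32 CPM in male KO and 76.1 ± 3.38 in male WT, and 51.5 ± 0.615 in female KO and 108 ± 6.39 in female WT. Its log2 fold change was -0.58 ± 0.046 in males and -1.06 ± 0.042 in females, both called. In males Aldh1a3, which makes retinoic acid, changed by -0.50 ± 0.060, and in females Crabp2, which carries it to the nucleus, by -1.11 ± 0.14. Cyp26b1, which degrades retinoic acid, was the 1 gene that rose, by 1.18 ± 0.22 in females. Cdx1 and Cdx4 were at 0 in all 4 groups, and Cdx2 was at 0 in all but female WT.

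Kidney partners and targets of Hox proteins gave 1 gene higher and 4 lower of 14 tested in male KO. In female KO 4 were higher and 6 lower. These counts stand beside 20.2% of all tested genes called in males and 39.3% in females. Gdnf, the signal from the mesenchyme to the ureteric bud and a target of the paralogues numbered 11, was at 20.2 ± 0.375 CPM in male KO and 26.3 ± 1.77 in male WT, and 15.6 ± 1.03 in female KO and 24.04 ± 1.45 in female WT. Ret, its receptor, changed by -0.60 ± 0.11 in males and by 0.51 ± 0.11 in females, both called. In females Lhx1 was called lower, with a log2 fold change of -0.87 ± 0.057, and Eya1, a cofactor of the paralogues numbered 11, was called higher at 0.84 ± 0.24. Pax8 was the 1 gene called higher in males, at 0.12 ± 0.036. The medians were -0.14 in males and -0.13 in females.

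**Figure D5:**
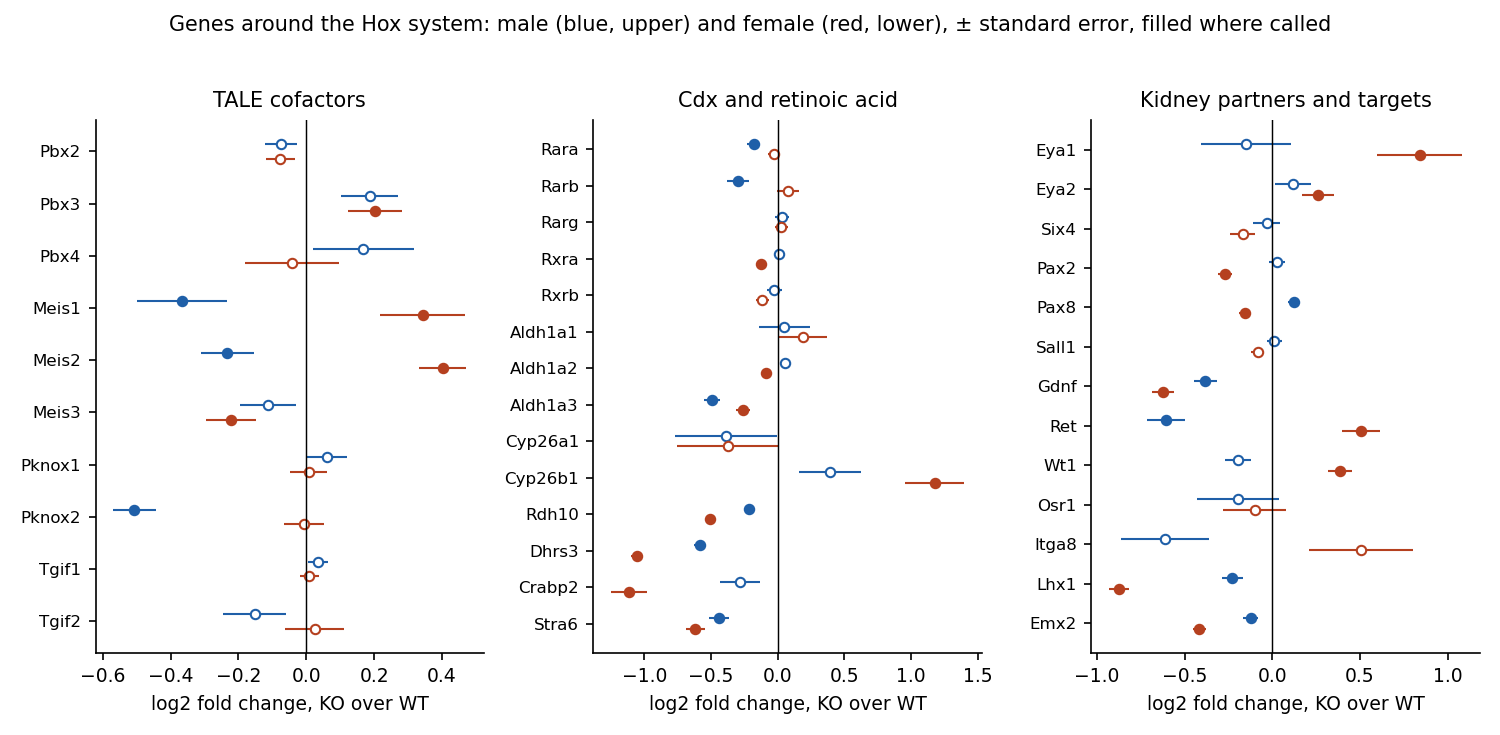
Log2 fold change of KO over WT with its standard error for tested genes of 3 lists, in males (blue, upper of each pair) and females (red, lower). Filled points passed an adjusted p below 0.05. Dhrs3 and Gdnf lie below 0 in both sexes, and Meis1, Meis2 and Ret lie below 0 in males and above 0 in females.

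The counts for chromatin regulators of the clusters stand beside 20.2% of all tested genes called in males and 39.3% in females. Of 30 Polycomb genes, which keep Hox clusters silent, 2 were called higher and 2 lower in male KO, and 6 higher and 4 lower in female KO. Ezh2, the methyltransferase of the complex, was at 0.13 ± 0.045 in males and 0.17 ± 0.042 in females, both called higher, and Aebp2, its cofactor, was called lower at -0.29 ± 0.042 in males and -0.31 ± 0.039 in females. In females the largest called changes were 1.09 ± 0.19 for Phf19 and -0.32 ± 0.030 for Cbx6. Of 17 Trithorax and demethylase genes, which keep Hox genes active, 0 were called in male KO and 1 in female KO (Dot1l, 0.12 ± 0.035). Of the 7 insulator and cohesin genes tested, 0 were called in males, and in females Smc1a was higher at 0.13 ± 0.034 and Rad21 lower at -0.088 ± 0.030.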

How the data were processed

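RNA was extracted with Trizol and RNeasy columns and made into strand-specific mRNA libraries, per the labels' protocols. The submitters' processing notes name STAR 2.6.1, featureCounts, edgeR 3.26.8, limma 3.40.6 and build mm10. The strand setting of the counting is not given in the sources used here. The authors deposited raw counts per gene and CPM, and the deposited CPM equal counts over the library total within 1e-06. Of the 24421 genes listed, 26 carry names that a spreadsheet turned into dates and 5184 had 0 counts in all libraries.

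Counts were tested here with edgeR 4.0.16 in R 4.3.3: filterByExpr (10 counts, 15 in total) kept 13912 genes, TMM factors were computed, and a robust quasi-likelihood model was fitted over the 4 groups. P-values were adjusted over all 13912 genes by Benjamini-Hochberg. The procedure was also run on simulated counts with planted changes, drawn with the spread between technical replicates. That run does not cover differences between pools. Alternatives were other scalings, DESeq2 1.42.0, limma-voom (limma 3.58.1), other filters, glmTreat against a fold of 1.2, a replicate block, a fit of the compared groups alone, and leaving out each library. Levels per kb use summed exon length in GENCODE M21 (GRCm38), with the longest coding transcript as an alternative added after seeing the data. Library totals were 17648416 to 30896637 counts, and the common coefficient of variation of the fit was 3.59%, which with the depth sets the precision.

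The symbol rule set the members, and that rule and the gene lists were chosen with earlier results of these data known. Every Hox gene could be named. From each list, up to 2 called genes per direction with the largest change were named for each comparison, and Dab2, Krt7 and genes listed at 0 as examples of levels. Inside the clusters every tested gene was named, and outside them the nearest tested gene at each end. Results of a few genes are counted in the totals and are not reported here by name.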

Additional observations from a re-analysis of the deposited data

Results flagged for a closer look

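The KO effect differed between the sexes for 15 Hox genes, by the test of the female effect minus the male effect (edgeR adjusted p below 0.05). Of all tested genes 15.6% were called, 5.89% more negative and 9.76% more positive. In HoxB the differences on the log2 scale were -0.19 for Hoxb3, -0.24 for Hoxb4, -0.29 for Hoxb5, -0.18 for Hoxb6, -0.32 for Hoxb7, -0.38 for Hoxb8 and -0.21 for Hoxb9. In HoxD they were -0.31 for Hoxd8, -0.22 for Hoxd9 and -0.23 for Hoxd10. In HoxC they were 1.03 for Hoxc4, 0.52 for Hoxc5, 0.44 for Hoxc8, 0.41 for Hoxc9 and 0.26 for Hoxc10. The Hoxc5 call was lost in 19 of 24 alternatives. Each sex and genotype is 1 pool of cells, so a difference between pools and a difference between the sexes cannot be told apart.

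One library stood apart from the rest of its group. Hoxb7 was at 60.6 CPM in female WT replicate 1, against 56.1 to 56.8 CPM in the other 3 female WT libraries. This was the 1 such case among 93 sets of libraries (a gene in a group of 4), and chance gives about 1 in 20. All 4 female WT libraries were above every female KO library for this gene.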

How the results depend on the processing

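No Hox log2 fold change that was called reversed its direction under any alternative run. DESeq2's Wald test called 3 Hox genes lower in male KO, against 5. Tested against a fold of 1.2, 0 were lower in male KO, 1 higher and 3 lower in female KO, 1 more positive and 0 more negative in the difference between the sexes, and 1 higher and 1 lower in female WT than in male WT. Leaving out single libraries gave 2 to 4 lower and 0 higher in male KO, 2 to 4 higher and 13 to 16 lower in female KO, 2 to 5 more positive and 7 to 12 more negative for the difference, and 15 to 16 higher and 1 to 3 lower for female WT against male WT. The count of expressed genes stayed at 31. The 4 genes higher in female KO came without female KO replicate 4. The 2 more positive differences came without male KO replicate 2, and 3 came without male KO replicate 1 or 3, female KO replicate 1 or 2, or female WT replicate 1 or 2. In female WT against male WT, 1 was lower without female WT replicate 2 or male WT replicate 1 or 4. The causes were not tested.

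Replicate numbers are shared between groups. Over 21 same-numbered pairs the correlation of deviations ran from -0.028 to 0.17 with a median of 0.030. Over 63 pairs with different numbers it ran from -0.113 to 0.071 with a median of -0.0055. It was over 0.1 in 1 same-numbered pair and in 0 of the others, and 8 of 15 libraries correlated best with their own number. Same-numbered libraries thus deviated together slightly more than others, with low correlations in both sets. With the replicate block, male KO had 0 Hox genes higher and 5 lower, female KO 2 higher and 15 lower, with 4 more positive and 12 more negative for the difference, and 16 higher and 2 lower for female WT against male WT.

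The male call of Hoxb5 was lost in 13 of 17 alternatives and that of Hoxc9 in 8 of 17. At 3 counts, levels below 0.0971 to 0.170 CPM could not be detected.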

Other observations

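Within 500 kb of the clusters, 37 of 60 flanking genes were tested, with 4 higher and 3 lower in male KO and 10 higher and 6 lower in female KO. Over all tested genes 20.2% were called in males and 39.3% in females, so these counts are near the background. Their median log2 fold change was 0.024 in males and 0.066 in females. Of the 8 tested genes inside the clusters that are not Hox genes, the median was -0.073 in males and -0.25 in females.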
